A study of Mus musculus with 2 samples.

Results

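The genes described here encode ABC pumps and organic ion transporters, the membrane proteins that carry bile acids, bilirubin conjugates, lipids, drugs and other organic ions across the faces of the hepatocyte. They were taken from all protein-coding rows of the count tables by symbol alone. A row was kept when its symbol was Abc followed by a letter from a to g and a number, except Abcc12, or when it began with Slco, Slc10a, Slc22a, Slc47a or Slc51. This gave 99 genes of the 52636 named genes. Of these, 67 had at least 20 counts summed over both libraries and were compared, against 14433 such genes in all. The 67 comprised 40 ABC genes and 27 carriers of the solute carrier families. The remaining 32 were under that floor. Just inside it lay Slc22a26, with 7 and 14 counts, and Abcb6, with 15 and 9. Just outside lay Slc10a6, with 8 and 11 counts, and Slco4a1, with 14 and 4.

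Liver RNA was sequenced from chow-fed C57BL/6 mice of 8 weeks, with 1 library per genotype and the RNA of 4 mice pooled in each. The library labelled flox came from Mettl3 flox/flox mice, which carry floxed alleles and no Cre. The library labelled HKO came from Mettl3 flox/flox Alb-Cre+/- mice, in which Cre is driven by the albumin promoter and removes exons 2 and 3 of Mettl3, an RNA methyltransferase gene, in hepatocytes. The paper describes the knockout as specific to hepatocytes, and the state of the gene in other liver cells was not measured here. Both pools share the floxed alleles. Mettl3 had 156 counts in the library labelled flox against 220 in that labelled HKO, which goes against the label, although counts of the whole gene do not measure the deleted exons alone, so the libraries are called by their labels throughout. With 1 pool per genotype there was no replicate check, no p-value is given for genotype, and each difference describes these 2 libraries.

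The total over named genes was 21457504 counts for the library labelled flox against 18438807 for that labelled HKO. Where a pair of counts or levels is given, the library labelled flox comes first. Levels are CPM, that is counts divided by library size and set to a common depth, after TMM scaling, a method that sets the bulk of genes equal between libraries, and levels of different transporters are compared as CPM per kilobase of exon. Ratios have the library labelled HKO as numerator and that labelled flox as denominator, with a 95% exact binomial interval that covers counting error alone. A gene is called past 2-fold when its log2 ratio reached 1 or −1 or went beyond and its interval left out equality. The median log2 ratio of all 14433 genes was 0.01. Scaling by total counts moved every log2 ratio up by 0.27, so differences are relative to the TMM scale. Of the 67 transporters 12 changed sign with total counts, among them Abcb1b, Abcc5, Abcf1, Abcf2, Abcg5, Abca8b, Slc10a5, Slc22a15, Slc22a23 and Slc47a1, each from a small negative to a positive ratio. On the TMM scale all 8 hepatocyte markers were lower in the library labelled HKO, with log2 ratios from −0.77 to −0.03, a median of −0.57 and a summed level of 107325 and 70338 CPM. Alb alone held 74634 and 43822 CPM of that sum. With total counts the median of the 8 markers was −0.30 and Apoa1 turned to 0.24. All 10 Kupffer cell and macrophage markers were higher there, with a summed level of 465 and 740 CPM and 4 past 2-fold. So were all 6 markers of monocyte-derived macrophages, from 3.22 to 22.3 CPM in sum and 6 past 2-fold, and no gene of these 3 marker lists was at 0 in either library. Of 8 endothelial markers none was past 2-fold, but 5 intervals lay below equality and 0 above, with a summed level of 429 and 353 CPM. Their median was −0.25, or 0.02 with total counts. Of 8 stellate cell markers 1 was past 2-fold higher and 1 lower, with 5 intervals above equality and 1 below. In bulk RNA fewer cells of a type and less RNA per cell cannot be told apart.

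Hepatocytes are polarised cells. Their basolateral face meets the blood and takes up bile acids and organic anions and cations through carriers of the Slc10, Slco and Slc22 families, while their canalicular face exports into bile, mostly through ABC pumps that spend ATP. A further set of pumps on the basolateral face returns bile acids and conjugates to the blood, a route known for its use in cholestasis. Other ABC proteins work in peroxisomes, mitochondria and lysosomes, or move lipids.

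Of the 67 compared transporters, 5 were past 2-fold higher in the library labelled HKO, or 7.46% beside 5.74% of all genes. Another 7 were past 2-fold lower, or 10.4% beside 4.66% of all genes. At a 1.5-fold limit, 6 were higher, or 8.96% beside 13.0% of all genes, and 16 were lower, or 23.9% beside 10.3%. By the cut the study describes, a log2 ratio beyond 1.5 in either direction and, here, an exact binomial p below 0.05, a comparison of the 2 libraries and not of genotypes, 3 were higher (background 2.21%) and 3 lower (background 2.13%). The interval lay below equality for 32 transporters, or 47.8% beside 27.7% of all genes, above it for 17, or 25.4% beside 28.3%, and around it for 18. With total counts it lay below for 23, or 34.3% beside 13.2% of all genes, above for 25, or 37.3% beside 49.2%, and around it for 19. The transporters together held 8383 and 6628 CPM. The lower calls were all in carrier genes. Of the 27 carriers 7 were past 2-fold lower and 3 higher, whereas of the 40 ABC genes none was past 2-fold lower and 2 were higher, a contrast that was not tested.

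**Figure D1:**
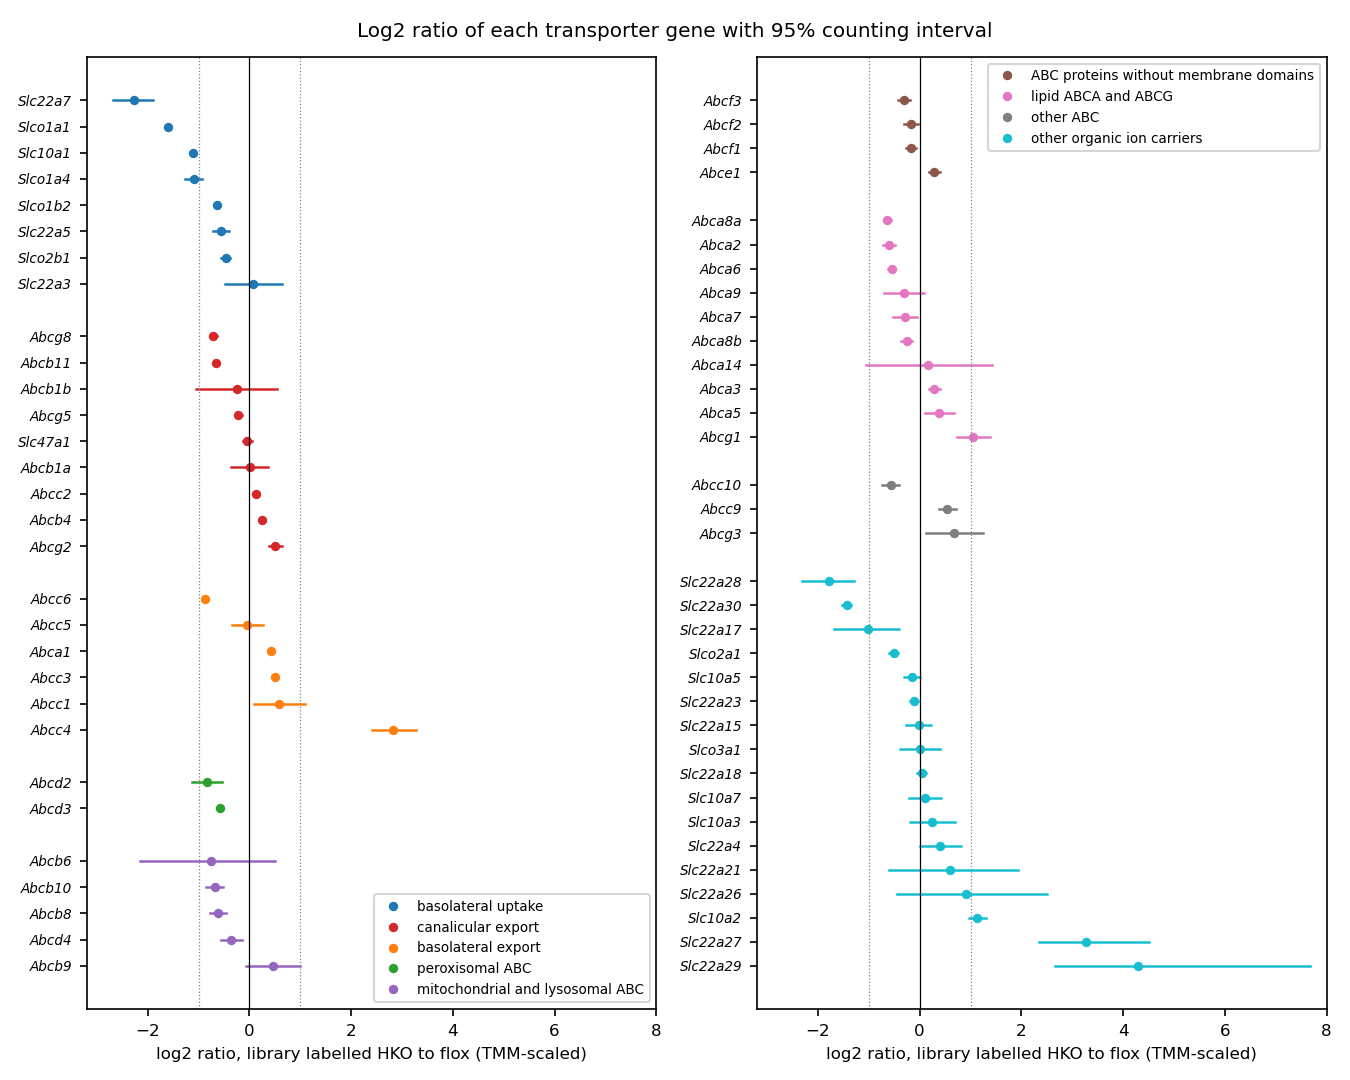
Log2 ratio between the libraries labelled HKO and flox (x axis) for 64 of the 67 transporter genes with at least 20 counts, grouped by role. Points are TMM-scaled ratios with 0.5 counts added to each library, bars are 95% counting intervals, and dotted lines mark 2-fold. Of the uptake genes at top left, 7 of the 8 drawn lie to the left of equality, and Slc22a29, Slc22a27 and Abcc4 lie farthest to the right.

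Basolateral uptake held 4 of the 7 lower calls. All 9 uptake genes on the list were measured, 4 were past 2-fold lower and none higher, and 8 had an interval below equality on both the TMM and the total count scale, where 27.7% and 13.2% of all genes did so. The summed level of the 9 genes was 2657 and 1462 CPM. Their median log2 ratio was −0.64, or −0.37 with total counts, beside 0.01 for all genes and −0.57 for the hepatocyte markers, or 0.28 and −0.30 with total counts. How far the lower hepatocyte markers account for this was not tested.

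Slc10a1 encodes NTCP, the sodium-dependent carrier that brings conjugated bile acids in from portal blood (ENSMUSG00000021135, GRCm38 chromosome 12, 80953183 to 80968705, minus strand). It had 12350 and 5927 counts, or 631 and 293 CPM. The log2 ratio was −1.11 (interval −1.15 to −1.06), and −0.84 with total counts, under the 2-fold limit. Per kilobase of exon it was the most abundant uptake gene in both libraries, at 287 and 133 CPM per kb. Its promoter is shown because it is the main bile acid carrier among the lower genes. The windows printed here run from 250 bases before to 50 bases after the start of the RefSeq gene on GRCm38.p6, read on the gene's strand, and capitals mark matches to 4 short motifs searched on both strands. These were AGGTCA, the nuclear receptor half-site, TTCNNNGAA, the palindrome of STAT factors, TGACNNNGC, the core of the antioxidant response element, and CACGTG, the E-box. They were chosen after the values were known, and matches of different motifs could overlap. The window of Slc10a1, chr12:80968656-80968955 on the minus strand, held 1 match, TTCTCTGAA, starting 53 bases before the start.
Slc10a1: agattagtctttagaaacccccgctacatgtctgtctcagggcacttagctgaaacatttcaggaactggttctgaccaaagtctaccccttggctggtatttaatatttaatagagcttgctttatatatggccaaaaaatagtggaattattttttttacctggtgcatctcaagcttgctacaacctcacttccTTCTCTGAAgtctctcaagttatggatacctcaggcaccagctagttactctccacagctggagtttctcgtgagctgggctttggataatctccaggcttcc

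The sodium-independent Slco carriers move organic anions, bile acids and drugs with broad overlap. Slco1b2, the mouse counterpart of the human hepatic bilirubin and statin carriers, had 19434 and 12889 counts (993 and 637 CPM), a log2 ratio of −0.64 (−0.67 to −0.61). Slco1a1, which mouse liver expresses more in males than in females, stood at 9925 and 3393 counts (507 and 168 CPM). Its log2 ratio was −1.60 (−1.65 to −1.54), the furthest apart of the abundant uptake genes, and it remained past 2-fold with total counts at −1.33. Slco1a4, a neighbour of Slco1a1 on chromosome 6 and known as higher in female liver, had 967 and 468 counts (49.4 and 23.1 CPM) and a log2 ratio of −1.09 (−1.26 to −0.93), or −0.83 with total counts. Thus the male-biased and the female-biased member were both lower in the library labelled HKO. Their transcripts were identical at 80.1% of aligned bases, but only 0.614% of the 100-base words of Slco1a1 and 0.64% of those of Slco1a4 occurred in another gene. Slco2b1 had 2574 and 1928 counts (132 and 95.3 CPM) and a log2 ratio of −0.46 (−0.55 to −0.38), with 37.4% of its exonic bases inside other annotated genes. Of the 6 measured Slco genes in all, 5 had an interval below equality on both scales and none above, with a family median of −0.58.

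Both libraries carried transcripts of the Y chromosome, such as Ddx3y with 1387 and 1317 counts, and 2 counts of Xist each. Of 8 genes known as male-biased in liver, Slco1a1 included, 5 were past 2-fold lower and none higher. Of 4 measured female-biased genes, Slco1a4 included, 3 were past 2-fold lower and 1 higher, and 3 more were at 0 in both libraries. The window of Slco1a1 is shown because that gene was the furthest apart of the abundant carriers. It lies at chr6:141946913-141947212 on the minus strand and held 2 half-sites, starting 134 and 24 bases before the start, the first of them on the opposite strand.
Slco1a1: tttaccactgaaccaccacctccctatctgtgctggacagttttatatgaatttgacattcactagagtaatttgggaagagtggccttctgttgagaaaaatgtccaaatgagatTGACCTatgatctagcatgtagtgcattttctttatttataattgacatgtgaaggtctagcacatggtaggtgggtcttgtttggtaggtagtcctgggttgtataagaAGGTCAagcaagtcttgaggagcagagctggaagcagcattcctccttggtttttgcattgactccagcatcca

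The Slc22 uptake genes ranged widely. Slc22a7, an organic anion carrier of the basolateral face, had 305 and 65 counts (15.6 and 3.21 CPM). This was a log2 ratio of −2.27 (−2.69 to −1.89), the lowest of all 67 transporters. Slc22a5, which brings in carnitine for fatty acid oxidation, had 759 and 534 counts (38.8 and 26.4 CPM) and a log2 ratio of −0.55 (−0.72 to −0.39), with 12.9% of its words shared with Slc22a21. Slc22a3, a low-affinity cation carrier, was the exception in direction. It had 53 and 58 counts (2.71 and 2.87 CPM), a log2 ratio of 0.08 (−0.48 to 0.65), so a difference was not detectable at this depth, and 9.44% of its exonic bases lie inside the gene of plasminogen.

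**Figure D2:**
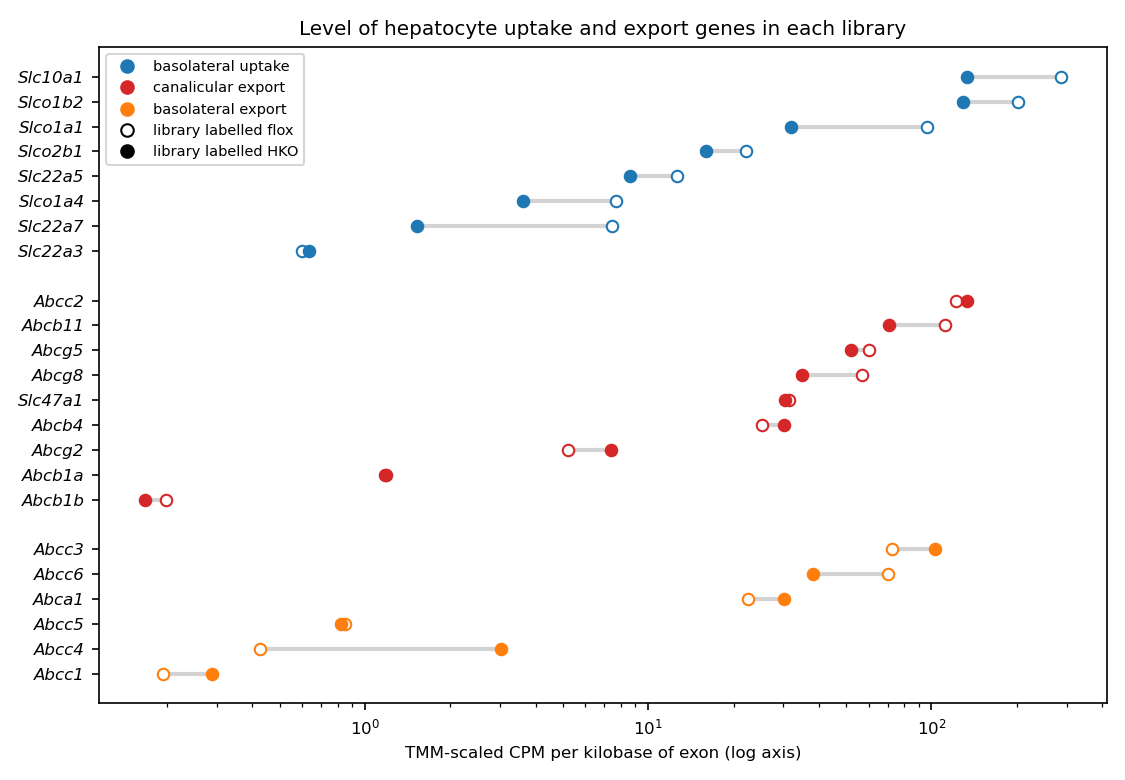
Level of 23 of the 24 measured uptake and export genes as TMM-scaled CPM per kilobase of exon (x axis, log scale), with 1 row per gene. Open circles are the library labelled flox and filled circles the library labelled HKO, joined by a grey line. Filled circles lie left of open ones in 7 of the 8 uptake genes drawn and on either side in the export genes.

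Canalicular export showed no such pattern. None of its 9 genes was past 2-fold in either direction, where 5.74% of all genes were higher and 4.66% lower. The interval lay above equality for 3, below for 3 and around it for 3. Over all genes 28.3% lay above and 27.7% below, so these counts lay near the shares of all genes. The summed level was 2384 and 2226 CPM. The median log2 ratio was −0.04, or 0.22 with total counts, beside 0.01 and 0.28 for all genes. Its sign thus depends on the scaling, and it lay near the median of all genes on both scales.

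The canalicular genes that were lower serve bile acids and sterols. Abcb11 encodes BSEP, the pump that drives bile acids into bile. It had 11238 and 7368 counts (574 and 364 CPM), a log2 ratio of −0.66 (−0.70 to −0.61), with 21.1% of its exonic bases inside other annotated genes. Abcg5 and Abcg8 form 1 heterodimer that secretes cholesterol and plant sterols, and they lie head to head on chromosome 17. Abcg8 had 4168 and 2640 counts (213 and 131 CPM), a log2 ratio of −0.71 (−0.78 to −0.64). Abcg5 had 3192 and 2841 counts (163 and 140 CPM), a log2 ratio of −0.22 (−0.29 to −0.14) that turned to 0.05 with total counts. The intervals of the 2 partners did not overlap. Of the exonic bases of Abcg5, 22.2% lie inside the gene body of Abcg8, introns included. Only 2.19% of those of Abcg8 lie inside that of Abcg5. The strand setting is not stated, and how many reads could belong to either gene was not tested.

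The canalicular genes that were higher serve conjugates, phospholipid and drugs. Abcc2, the pump for bilirubin glucuronide and other conjugates, had 20353 and 23018 counts (1040 and 1138 CPM), a log2 ratio of 0.13 (0.10 to 0.16). Abcb4, which moves phosphatidylcholine into bile, had 4629 and 5701 counts (237 and 282 CPM), a log2 ratio of 0.25 (0.20 to 0.31). Abcg2, an exporter of sulfated conjugates, urate and drugs, had 828 and 1216 counts (42.3 and 60.1 CPM), a log2 ratio of 0.51 (0.38 to 0.64). Total counts move every log2 ratio up by 0.27, so all 3 intervals necessarily stayed above equality on that scale. Abcb4 and Abcb11, whose products supply the phospholipid and the bile acids of the same micelles, thus lay on opposite sides of equality on the TMM and the total count scale.

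On the TMM scale the other canalicular genes could not be separated from equality. Slc47a1, which exchanges organic cations for protons, had 2077 and 2084 counts (106 and 103 CPM), a log2 ratio of −0.04 (−0.13 to 0.05), but with total counts it was 0.22 and its interval lay above equality. The P-glycoprotein genes were scarce. Abcb1a had 126 and 131 counts (6.44 and 6.48 CPM), a log2 ratio of 0.01 (−0.36 to 0.37), and Abcb1b had 31 and 27 counts (1.58 and 1.34 CPM), a log2 ratio of −0.24 (−1.05 to 0.54). These paralogs share 100-base words with each other and with a few other genes, 13.4% of those of Abcb1a and 6.61% of those of Abcb1b, so reads could be split between them.

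Basolateral export leaned the other way from uptake. Of 8 genes 6 were measured, with 1 past 2-fold higher and none lower, where 5.74% and 4.66% of all genes were. The TMM interval lay above equality for 4 of them, beside 28.3% of all genes. Total counts move every ratio up, and the same 4 lay above there, beside 49.2% of all genes. The median log2 ratio was 0.47, beside 0.01 for all genes and −0.64 for uptake on the same face. With total counts these medians were 0.73, 0.28 and −0.37. Summed levels were 1061 and 1149 CPM, with Abcc6 lower and the other abundant exporters higher.

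Abcc4 encodes a pump that sends bile acids, with glutathione, and cyclic nucleotides out across the basolateral face (ENSMUSG00000032849, GRCm38 chromosome 14, 118482692 to 118706219, minus strand). It had 53 and 389 counts, or 2.71 and 19.2 CPM. This was 7.04-fold higher (5.32 to 9.65), a log2 ratio of 2.82. No exonic base lay inside another gene and no 100-base word was shared. Even so, at 3.01 CPM per kb in the library labelled HKO it stayed far below Abcc3, at 103 CPM per kb. The window of Abcc4 is shown because the gene was the furthest apart of the exporters. It lies at chr14:118706170-118706469 on the minus strand and held 3 matches. They were CACGTG, 205 bases before the start, GCGGGGTCA, the antioxidant core on the opposite strand, 25 bases before it, and TTCCCGGAA, which begins at base 3 of the transcribed part.
Abcc4: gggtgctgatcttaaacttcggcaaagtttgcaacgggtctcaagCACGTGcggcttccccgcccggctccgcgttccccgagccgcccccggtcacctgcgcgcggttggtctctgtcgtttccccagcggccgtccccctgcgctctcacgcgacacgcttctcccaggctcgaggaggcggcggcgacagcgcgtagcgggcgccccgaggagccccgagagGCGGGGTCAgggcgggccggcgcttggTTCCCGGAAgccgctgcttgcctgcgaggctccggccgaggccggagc

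Abcc3, an exporter of glucuronides and bile acids to the blood, had 8055 and 11862 counts (412 and 587 CPM), a log2 ratio of 0.51 (0.47 to 0.55). It was the most abundant basolateral exporter per kilobase in both libraries. Abca1, which loads cholesterol and phospholipid onto apolipoprotein A-I, had 4556 and 6311 counts (233 and 312 CPM), a log2 ratio of 0.42 (0.37 to 0.48). Abcc1, a broad conjugate exporter, had 57 and 88 counts (2.91 and 4.35 CPM), a log2 ratio of 0.57 (0.08 to 1.09). Abcc5, an exporter of nucleotide analogs, had 177 and 178 counts (9.05 and 8.80 CPM), a log2 ratio of −0.04 (−0.35 to 0.27). Macrophages also express Abca1 and Abcc1, and the macrophage markers were higher in the same library. Their part in these values was not tested.

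Abcc6 was the exception among basolateral exporters. Its product mediates ATP release from hepatocytes, the source of circulating pyrophosphate that holds back calcification. It had 7849 and 4403 counts (401 and 218 CPM), a log2 ratio of −0.88 (−0.94 to −0.83), and −0.62 with total counts. The bile acid exporter of 2 subunits, Slc51a and Slc51b, had 1 count of each subunit in the library labelled flox against 0 in that labelled HKO, where a count of 0, read as up to 3 counts, allows up to 0.148 CPM. No ratio is given for them.

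Uptake and export were then set side by side. The 15 measured export genes of both faces held 3445 and 3375 CPM, while the uptake genes held 2657 and 1462 CPM. Of the export genes 7 had an interval above equality and 4 below, compared with 0 above and 8 below among the 9 uptake genes. Over all genes 28.3% lay above and 27.7% below. The export median was 0.01, as was that of all genes to 2 decimals, and ranged from −0.07 to 0.27 over the other scalings. The 15 basolateral genes, uptake and export together, had a median of −0.46 with 4 past 2-fold lower and 1 higher. For the 9 canalicular genes the median was −0.04 with no call, where 4.66% of all genes were past 2-fold lower and 5.74% higher. The basolateral value mixes the lists of opposite lean. The difference between these lists was not tested, as there was 1 library per genotype.

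**Figure D3:**
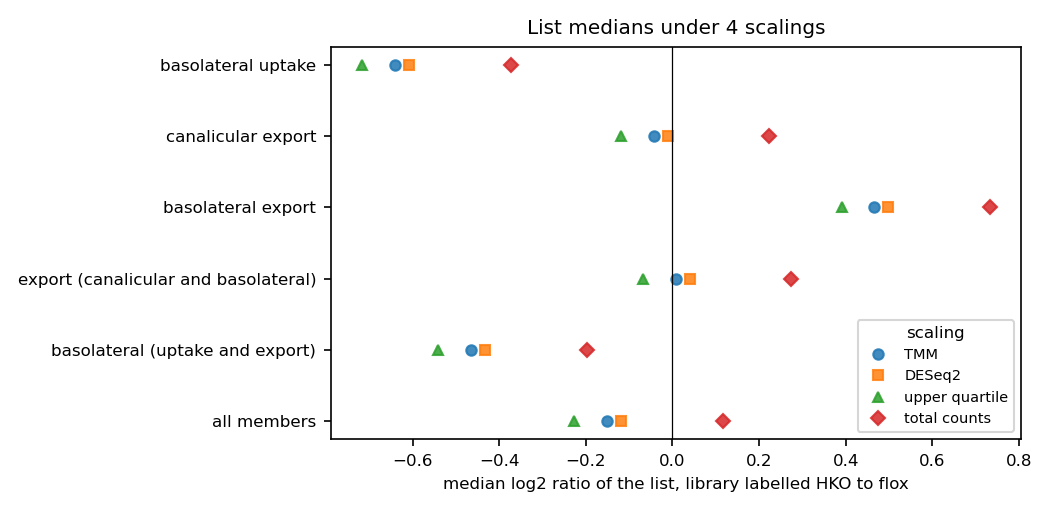
Median log2 ratio between the libraries labelled HKO and flox (x axis) for the uptake and export lists and for all 67 transporters, under 4 scalings of the same counts. The uptake median is negative and the basolateral export median positive under all 4, while the canalicular median runs from −0.12 to 0.22.

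Beyond the uptake and export lists, the Slc22a genes of chromosome 19 held the widest spread. Slc22a26, Slc22a27, Slc22a28, Slc22a29 and Slc22a30 follow in this order along 1 strand, between 7781041 and 8405111 on GRCm38. They belong to the organic anion branch of the family. Slc22a27 was 9.62-fold higher in the library labelled HKO (5.10 to 22.8), with 9 and 94 counts (0.46 and 4.65 CPM), a log2 ratio of 3.27. Slc22a28 was 3.43-fold lower (2.45 to 4.99), with 144 and 43 counts (7.36 and 2.13 CPM), a log2 ratio of −1.78. Slc22a29 had 2 and 50 counts (0.102 and 2.47 CPM), a ratio of 24.2 (6.35 to 205) without any added prior. Slc22a30, the abundant one at 57.3 and 21.2 CPM per kb, was 2.71-fold lower (2.55 to 2.88), with 3777 and 1442 counts (193 and 71.3 CPM), a log2 ratio of −1.44. Slc22a26 had 7 and 14 counts, with an interval of the log2 ratio from −0.45 to 2.50 that includes equality. Past 2-fold calls thus alternated between higher and lower along the row, on the TMM and on the total count scale.

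**Figure D4:**
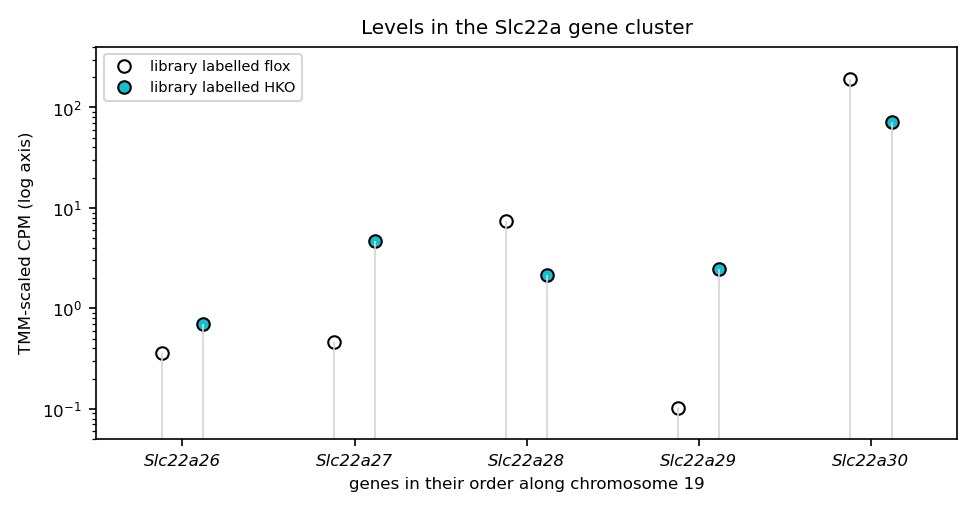
TMM-scaled CPM (y axis, log scale) of the 5 Slc22a genes of chromosome 19 in their order along the chromosome, with open circles for the library labelled flox and filled circles for the library labelled HKO. Slc22a27 and Slc22a29 are higher and Slc22a28 and Slc22a30 lower in the library labelled HKO.

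These genes resemble each other, and that limits the counts. Of the 100-base words of Slc22a28, 37.0% occur in Slc22a27, Slc22a29 or Slc22a30, and of those of Slc22a30, 21.1% occur in Slc22a28 or Slc22a29. The share was 7.31% for Slc22a27 and 7.51% for Slc22a29. The transcripts of Slc22a27 and Slc22a29, both higher, were identical at 96.0% of aligned bases, and those of Slc22a28 and Slc22a30, both lower, at 91.8%. Across the directions, Slc22a27 and Slc22a28 were identical at 90.2% and Slc22a29 and Slc22a30 at 81.8%. Reads from shared stretches may have been dropped or assigned to either gene, so the counts of Slc22a28 in particular are uncertain.

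The windows at the annotated starts of these 4 genes grouped differently from the transcripts. The windows of Slc22a28 and Slc22a30, both lower, were identical at 98.0% of 294 aligned bases. That of Slc22a29, which was higher, was identical to them at 77.2% and 79.3%, and that of Slc22a27, also higher, matched the other 3 at only 59.3% to 61.7%. The windows of the 2 genes that were higher were identical at 60.5%. Yet all 2152 bases of the Slc22a27 transcript aligned to that of Slc22a29, at 96.0% identity. Whether the annotated starts of the 4 windows lie at matching positions was not tested. The windows are shown so that they can be compared by eye. They lie on the minus strand at chr19:7965978-7966277 for Slc22a27, chr19:8131933-8132232 for Slc22a28, chr19:8218851-8219150 for Slc22a29 and chr19:8405056-8405355 for Slc22a30. Capitals again mark motif matches. Slc22a27 held 2 antioxidant cores, starting 161 and 11 bases before the start, and 1 half-site on the opposite strand at 119 bases, and the other 3 windows held no match.
Slc22a27: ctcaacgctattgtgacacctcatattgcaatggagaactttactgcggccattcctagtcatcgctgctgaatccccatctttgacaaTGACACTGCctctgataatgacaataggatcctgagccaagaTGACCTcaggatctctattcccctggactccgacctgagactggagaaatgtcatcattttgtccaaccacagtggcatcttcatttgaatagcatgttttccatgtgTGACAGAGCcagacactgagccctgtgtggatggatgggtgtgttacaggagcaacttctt
Slc22a28: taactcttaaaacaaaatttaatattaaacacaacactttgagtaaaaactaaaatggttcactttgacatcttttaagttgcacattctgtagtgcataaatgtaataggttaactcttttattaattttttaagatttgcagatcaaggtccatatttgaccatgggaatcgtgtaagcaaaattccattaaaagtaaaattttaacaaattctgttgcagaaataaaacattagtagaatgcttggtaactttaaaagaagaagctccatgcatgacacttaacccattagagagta
Slc22a29: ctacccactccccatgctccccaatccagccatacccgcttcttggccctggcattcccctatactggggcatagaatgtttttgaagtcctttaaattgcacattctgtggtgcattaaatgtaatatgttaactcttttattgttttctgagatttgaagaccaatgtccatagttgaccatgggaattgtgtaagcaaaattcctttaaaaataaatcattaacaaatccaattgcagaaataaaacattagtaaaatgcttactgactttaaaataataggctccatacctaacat
Slc22a30: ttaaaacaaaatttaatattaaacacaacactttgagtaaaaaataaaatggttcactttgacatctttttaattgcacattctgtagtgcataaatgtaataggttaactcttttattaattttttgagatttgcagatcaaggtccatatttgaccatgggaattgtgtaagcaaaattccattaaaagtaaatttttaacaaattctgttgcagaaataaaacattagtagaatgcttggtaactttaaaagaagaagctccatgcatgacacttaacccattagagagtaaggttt

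A window was found for 50 of the 67 measured transporters, 60 windows in all, since some genes have more than 1. Half-sites occurred in 11 of these (18.3%) beside 16.3% of all 32851 mouse windows, the STAT palindrome in 8 (13.3%) beside 8.30%, the antioxidant core in 8 (13.3%) beside 12.4%, and the E-box in 6 beside 7.15%. Among the bile acid genes, Abcb11 and Slco1b2 had a half-site, as did Slc10a1 in its other window, which begins downstream of the one printed. Longer repeats of the half-site, an inverted repeat with 1 base between and direct repeats with 1 or 4 bases between, were in no transporter window. They were in 0.00913%, 0.0396% and 0.0152% of all windows. A match says only that the letters are there.

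Of the other organic ion carriers, 17 of 38 were measured, with 3 past 2-fold higher and 3 lower, and the cluster held 4 of these 6. Slc10a2, the sodium-dependent bile acid carrier known from the ileum and from bile duct cells, had 426 and 967 counts (21.8 and 47.8 CPM). The log2 ratio was 1.13 (0.97 to 1.30), the opposite direction from the basolateral bile acid carrier Slc10a1. Of 7 measured bile duct markers, which include Slc10a2 itself, 2 were past 2-fold higher and 2 lower. Sox9 had 94 and 404 counts, Krt19 731 and 165, and Krt7 100 and 38. The 6 measured markers other than Slc10a2 summed to 93.4 and 86.3 CPM, and Cftr was under the floor. The part of bile duct cells in the value of Slc10a2 was not tested.

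Slc22a17, a receptor for the iron carrier lipocalin-2, had 65 and 33 counts (3.32 and 1.63 CPM), a log2 ratio of −1.02 (−1.68 to −0.40). It fell short of the 2-fold limit with total counts (−0.75) and DESeq2 factors (−0.98). The prostaglandin carrier Slco2a1 had 2591 and 1879 counts, a log2 ratio of −0.51. By contrast, Slc22a18 had 2247 and 2385 counts, Slc22a23 2935 and 2802, and Slc22a15 262 and 267, each with a log2 ratio between −0.11 and 0.04. For the ergothioneine carrier Slc22a4 the counts were 92 and 126, for Slc10a7 161 and 179, for Slco3a1 106 and 110, and for Slc22a21 10 and 16. Slc10a5 had 772 and 719 counts and Slc10a3 79 and 97, but 100% and 93.5% of their exonic bases lie inside other genes.

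The peroxisomal ABC genes import very long chain and branched acyl groups for oxidation. Abcd3, the most abundant, also takes up bile acid precursors. It had 7059 and 4910 counts (361 and 243 CPM), a log2 ratio of −0.57 (−0.62 to −0.52). Abcd2 had 257 and 149 counts, a log2 ratio of −0.83. None of the list was past 2-fold, and its median was −0.57, or −0.30 with total counts.

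Among the 6 mitochondrial and lysosomal ABC genes none was past 2-fold. Abcb8 had 917 and 618 counts, a log2 ratio of −0.62. Abcb10, a pump of the inner mitochondrial membrane in heme-forming cells, had 804 and 518 counts and a log2 ratio of −0.68, but its exons lie wholly inside other annotated genes. Abcd4, needed for release of cobalamin from lysosomes, had 439 and 355 counts, a log2 ratio of −0.35. Abcb9, a lysosomal peptide transporter, was at 54 and 77 counts, with an interval that includes equality and 33.4% of its exonic bases inside another gene. Abcb6, named above at the floor, lies almost wholly inside another gene as well. The list median was −0.49, or −0.22 with total counts.

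The ABC proteins without membrane domains act on ribosomes and not as transporters. Abce1, the ribosome recycling factor, had 1169 and 1476 counts, a log2 ratio of 0.29. Abcf1, Abcf2 and Abcf3 had log2 ratios of −0.17, −0.18 and −0.31. Their list median of −0.17 became 0.10 with total counts.

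Of 17 lipid ABCA and ABCG genes outside the hepatic export lists, 10 were measured and 1 was past 2-fold. Abcg1, which moves cholesterol to lipoproteins and is strongly expressed in macrophages, had 114 and 245 counts (5.83 and 12.1 CPM), a log2 ratio of 1.05 (0.73 to 1.39), and 0.98 with upper quartile factors, under the 2-fold limit. Macrophage markers were higher in the same library, and their part in it was not tested. In contrast, Abca6 had 4568 and 3219 counts and Abca8a 3900 and 2599, log2 ratios of −0.55 and −0.63. Abca8b, beside them on chromosome 11, had 1584 and 1373 counts, a log2 ratio of −0.25 that became 0.01 with total counts. Abca3 was at 1215 and 1533 counts, with 20.1% of its exonic bases inside other genes, and Abca2 at 1548 and 1057. The remaining 4 were Abca5 with 178 and 240 counts, Abca7 with 331 and 279, Abca9 with 121 and 101 and Abca14 with 12 and 14, and their log2 ratios lay between −0.31 and 0.38. The remaining 4 were Abca5 with 178 and 240 counts, Abca7 with 331 and 279, Abca9 with 121 and 101 and Abca14 with 12 and 14, and their log2 ratios lay between −0.31 and 0.38. The list median was −0.27, or −0.01 with total counts. Among 3 other measured ABC genes, Abcc9, a regulatory subunit of potassium channels, had 489 and 737 counts, Abcc10 652 and 453, and Abcg3 46 and 76.

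Of the 32 transporters under the floor, 17 had no count in either library and 15 had 1 to 19. A count of 0 allows up to 0.153 CPM with the flox label and 0.148 CPM with the HKO label. Those at 0 included the organic anion carriers Slc22a8, Slc22a12 and Slc22a13, known from kidney, and Slco1a6. Slc22a6 had 0 and 1 count, and the kidney cation carrier Slc22a2 had 1 and 0.

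The nuclear receptors that control these transporters were examined as a list of 16 regulators. One was past 2-fold lower and none higher, beside 4.66% and 5.74% of all genes. Nr1i3, which encodes CAR, a receptor that induces drug carriers, had 933 and 383 counts, a log2 ratio of −1.33, with 89.2% of its exonic bases inside other genes. By counts, which are not corrected for gene length, the highest were Hnf4a, with 21602 and 13071 counts and a log2 ratio of −0.77, and Rxra, with 13450 and 11797 counts and −0.24, which became 0.03 with total counts. The list median was −0.26, or 0.01 with total counts. Of 16 membrane partners and scaffolds 1 was past 2-fold lower and none higher. Ezr, which encodes ezrin, a linker of membrane proteins to actin, had 378 and 165 counts, a log2 ratio of −1.24. With total counts it was −0.97, under the 2-fold limit. By counts the highest in sum were the scaffold Slc9a3r1, with 7530 and 4398 counts and a log2 ratio of −0.82, and the canalicular linker radixin, Rdx, with 3720 and 3914 counts and 0.03. The list median was −0.07, or 0.20 with total counts.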

How the data were processed

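The deposited files hold, for each gene, whole-number counts of read pairs that the authors made from paired-end libraries of pooled liver RNA. The submitters' processing notes name TopHat2, GRCm38 and HTSeq 0.6.1, whereas the study's methods name Hisat2, and which of these made the files was not tested. Whether counting used strand is not given in the sources used here. No molecular tags are described, so duplicate read pairs could not be told from separate molecules. The intervals treat every count as independent and cover counting error only.

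Genes were named from GENCODE M21, which matched 52489 of 52636 identifiers. Unannotated loci, with 0.328% and 0.261% of counts, were left out. Factors for TMM came from edgeR 4.0.16 and served for scaling only, with DESeq2 1.42.0, upper quartile and total count scaling as alternatives. A prior of 0.5 counts was added for log2 ratios, and where a library held 1 to 3 counts the printed ratio is that of the counts without it. Intervals are exact Clopper-Pearson intervals. One count equals 0.0511 and 0.0494 CPM. Exonic length is the union of exons, and overlap is the share of exonic bases inside another annotated gene, its introns included. Pairs of sequences were aligned globally, with identity over aligned bases. Promoter windows came from RefSeq (GRCm38.p6). The ratios and intervals were run on simulated counts drawn with counting error alone, which is the error that the intervals assume. That simulation held no variation between mice or library preparations and so cannot speak to it.

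Named with full values were the measured uptake and export genes, members past 2-fold, and the members highest in CPM or in CPM per kilobase. Values of 3 members are not reported here singly, although list counts, medians and sums include them. Members and lists were chosen with earlier results of these data known. Python 3.11.15, SciPy 1.17.1, Biopython 1.88 and R 4.3.3 were used.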

Additional observations from a re-analysis of the deposited data

How the results depend on the processing

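Among the 32 transporters that the naming rule takes, DESeq2 factors moved 1 log2 ratio out of its counting interval and a prior of 2 counts moved none. Upper quartile factors moved 13. Total counts moved Abcg5 and 19 others, and turned the sign of 4. These were Abcg5, whose interval had excluded equality, to 0.0507, and Slc47a1, Abcc5 and Abcb1b, whose intervals had not. With total counts 4 transporters were past 2-fold lower, since Slc10a1, Slco1a4 and Slc22a17 fell short. That scaling gave medians of 0.12 for all transporters, 0.22 for canalicular export, 0.73 for basolateral export, −0.37 for basolateral uptake, 0.27 for all export, −0.20 for all basolateral genes and 0.10 for ABC proteins without membrane domains, against −0.15, −0.04, 0.47, −0.64, 0.01, −0.46 and −0.17 with TMM. Upper quartile factors gave −0.12 for canalicular export and −0.0681 for all export. Without the count floor the medians were 0.19 for basolateral export, −0.0399 for all export and −0.55 for all basolateral genes, because Slc51a and Slc51b enter with 1 count each. Restricting to genes with at most 10% of exonic bases inside another gene gave 0.0432 for canalicular export, −0.87 for basolateral uptake and 0.19 for all export. At a 1.5-fold limit 16 transporters were lower, and the rule of an absolute log2 ratio above 1.5 left 3 higher and 3 lower. Slc22a17 lost its call with DESeq2 factors and with a prior of 2 counts, and Abcg1 with upper quartile factors. A floor of 100 counts left 4 higher and 6 lower. The signs of the uptake and basolateral export medians held under every alternative run here.

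No paired analysis was possible because each genotype had 1 pooled library. Depth limits the scarce genes most: the interval of the log2 ratio spans from −1.05 to 0.54 for Abcb1b and from −0.48 to 0.65 for Slc22a3. None of these alternatives addresses variation between mice or library preparations.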

Other observations

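ABC family genes that carry other symbols were looked up after the values were seen. Tap1 and Tap2, which load peptides for antigen presentation, had 575 and 656 counts and 358 and 369 counts, the library labelled flox first, with log2 ratios of 0.14 (interval −0.02 to 0.31) and −0.0044 (−0.22 to 0.21). Neither was separable from equality on the TMM scale, and 57.4% of the exonic bases of Tap2 lie inside other genes. The chloride channel gene Cftr had 6 and 3 counts, under the floor.

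Atp8b1, a flippase of the canalicular membrane, had 1133 and 1872 counts and a log2 ratio of 0.68 (0.57 to 0.78), and Nfe2l2, a regulator of the antioxidant response, had 1006 and 1984 counts and a log2 ratio of 0.93 (0.82 to 1.04). Both were chosen for mention after their values were seen.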
